A study of Mus musculus with 3 samples.

Results

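GLI3 binding at 10 forkhead genes was described in E10.5 mouse forelimb buds, taken from embryos of 32 to 35 somites. The genes were the chr8 cluster of Foxf1, Foxc2 and Foxl1, the chr13 cluster of Foxf2, Foxq1 and Foxc1, and the single genes Foxd1, Foxd2, Foxp1 and Foxp2. The assay was ChIP-seq, in which chromatin is fixed and sheared, the protein is pulled down with an antibody and the DNA that comes with it is sequenced. There were 2 ChIP replicates and 1 input library of chromatin without immunoprecipitation, each labelled as 2 litters of limb buds on a mixed strain background. The endogenous GLI3 protein carried a FLAG epitope tag, which the antibody recognises, although the genotype label of all 3 libraries reads wild type. The libraries had no treatment and no untagged control, and a value from pooled whole buds cannot tell strong binding in few cells from weak binding in many. The deposited values were 1 list of 17149 peaks with no value per replicate. The study describes peaks with an FDR (false discovery rate) under 0.05 as called from both replicates. No difference below could therefore be set against the spread between replicates, no test was run, and the exact read depth of each library is not given in the sources used here, which state only a minimum.

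Members were all listed peaks whose summit lay within 250 kb of an annotated transcription start site (TSS) of 1 of the 10 genes. The members were chosen by their position, and the genes with results of this list known, so the number of peaks at each locus is a description. The rule found 121 of the 17149 listed peaks. Of these, 35 lay at the chr8 cluster, 26 at the chr13 cluster and 60 at the single genes (22 at Foxd1, 26 at Foxd2, 9 at Foxp1 and 3 at Foxp2). A false discovery rate (FDR) under 0.05, the authors' own value for each peak, was given for 54 of the 121 (44.6%, 95% Wilson interval 36.1 to 53.5). Over the whole list the share was 42.5%, so the members were close to the background. Under an FDR of 0.01 were 28 members (23.1%, 16.5 to 31.4), beside 28.9% of the list. All intervals reflect the number of peaks counted, not the variation between embryos. They treat each peak as independent, although many lie close to another, so they may be too narrow. With summits within 1 kb of each other merged, the 35, 26 and 60 peaks became 26, 17 and 35. For a count of 0 the limit given is 3 counts of the total, in place of a Wilson interval.

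GLI3 is a zinc finger transcription factor of the Hedgehog pathway, and in the absence of the Hedgehog signal it is processed to a repressor. Forkhead proteins are transcription factors with a winged helix DNA-binding domain. Foxf1 and Foxf2 act in mesenchyme beside Hedgehog-secreting epithelia such as those of the gut, and Foxl1 also marks gut mesenchyme. Foxc1 and Foxc2 act in somites, blood vessels and skeletal precursors. Foxd1 and Foxd2 are known from the kidney stroma and other mesenchyme, and Foxq1 from hair and stomach epithelium. Foxp1 and Foxp2 belong to a subfamily of repressors that act in the brain, lung and other organs. The chr8 and chr13 groups are related clusters, in which Foxf1 and Foxf2 are paralogs, as are Foxc2 and Foxc1.

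The sequences that carry the motif results came from the GRCm38.p6 genome (mm10). A GLI match was GACCACCCA with at most 1 mismatch, on either strand, within 250 bp on either side of the summit. The 8 members with the exact consensus are shown first, on the plus strand with 25 bases on each side, because the exact consensus was more frequent among the members than in the list. Capitals mark the match, which reads TGGGTGGTC where it lies on the minus strand. Names give the locus and the rank in the list. The window reaches past short peaks, and of the 8 sites 5 lay inside the called peak while 3 (ranks 7911, 13881 and 4065) lay outside it.
chr8 cluster, rank 1114 (chr8:121080806-121080864): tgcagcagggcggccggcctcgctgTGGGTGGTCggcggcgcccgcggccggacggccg
chr8 cluster, rank 7911 (chr8:120899219-120899277): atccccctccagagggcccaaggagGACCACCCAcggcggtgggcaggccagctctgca
chr8 cluster, rank 14781 (chr8:120993828-120993886): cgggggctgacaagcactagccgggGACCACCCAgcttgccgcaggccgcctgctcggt
Foxd1, rank 4205 (chr13:98573757-98573815): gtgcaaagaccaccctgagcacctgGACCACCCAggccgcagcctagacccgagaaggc
Foxd1, rank 13881 (chr13:98205354-98205412): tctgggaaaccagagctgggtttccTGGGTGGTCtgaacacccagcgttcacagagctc
Foxd2, rank 8 (chr4:114822001-114822059): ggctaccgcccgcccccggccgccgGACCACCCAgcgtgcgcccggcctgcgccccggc
Foxd2, rank 3363 (chr4:114903246-114903304): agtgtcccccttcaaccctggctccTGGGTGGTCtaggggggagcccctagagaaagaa
Foxp2, rank 4065 (chr6:14898323-14898381): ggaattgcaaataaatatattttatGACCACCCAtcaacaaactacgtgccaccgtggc

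A further pair of sites is shown because each lies in 1 of the 3 highest-ranked peaks of a cluster and both hold the same variant. In this variant, C3A, the consensus has C at position 3, counted from 1 at its 5′ end, and the site has A.
chr8 cluster, rank 5 (chr8:121301190-121301248): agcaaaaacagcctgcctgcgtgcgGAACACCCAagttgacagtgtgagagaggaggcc
chr13 cluster, rank 548 (chr13:32034426-32034484): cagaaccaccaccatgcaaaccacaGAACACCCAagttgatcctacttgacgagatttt

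The 3 genes of the chr8 cluster lie within 50 kb of each other on the plus strand of chromosome 8, with TSSs at 121084386 (Foxf1), 121116171 (Foxc2) and 121127940 (Foxl1). Their windows overlap, and 29 of the 35 listed peaks were within 250 kb of all 3 genes, so the counts of 31 for Foxf1, 30 for Foxc2 and 33 for Foxl1 are largely the same peaks. The density was 6.44 listed peaks per 100 kb over 543.6 kb, beside 0.629 per 100 kb over the placed chromosomes. At an FDR under 0.05 there were 12 peaks (34.3%, 20.8 to 50.8). That share was the lowest of the 3 groups of loci, and its interval includes the 42.5% of the list. Of protein-coding genes, 0.574% had at least as many listed peaks as Foxf1, 0.656% as Foxc2 and 0.447% as Foxl1. For peaks with an FDR under 0.05 the corresponding shares were 4.33%, 5.78% and 4.33%. A listed peak within 250 kb was itself common, being found for 84.8% of 21938 protein-coding genes, and a peak with an FDR under 0.05 for 70.5%.

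**Figure D1:**
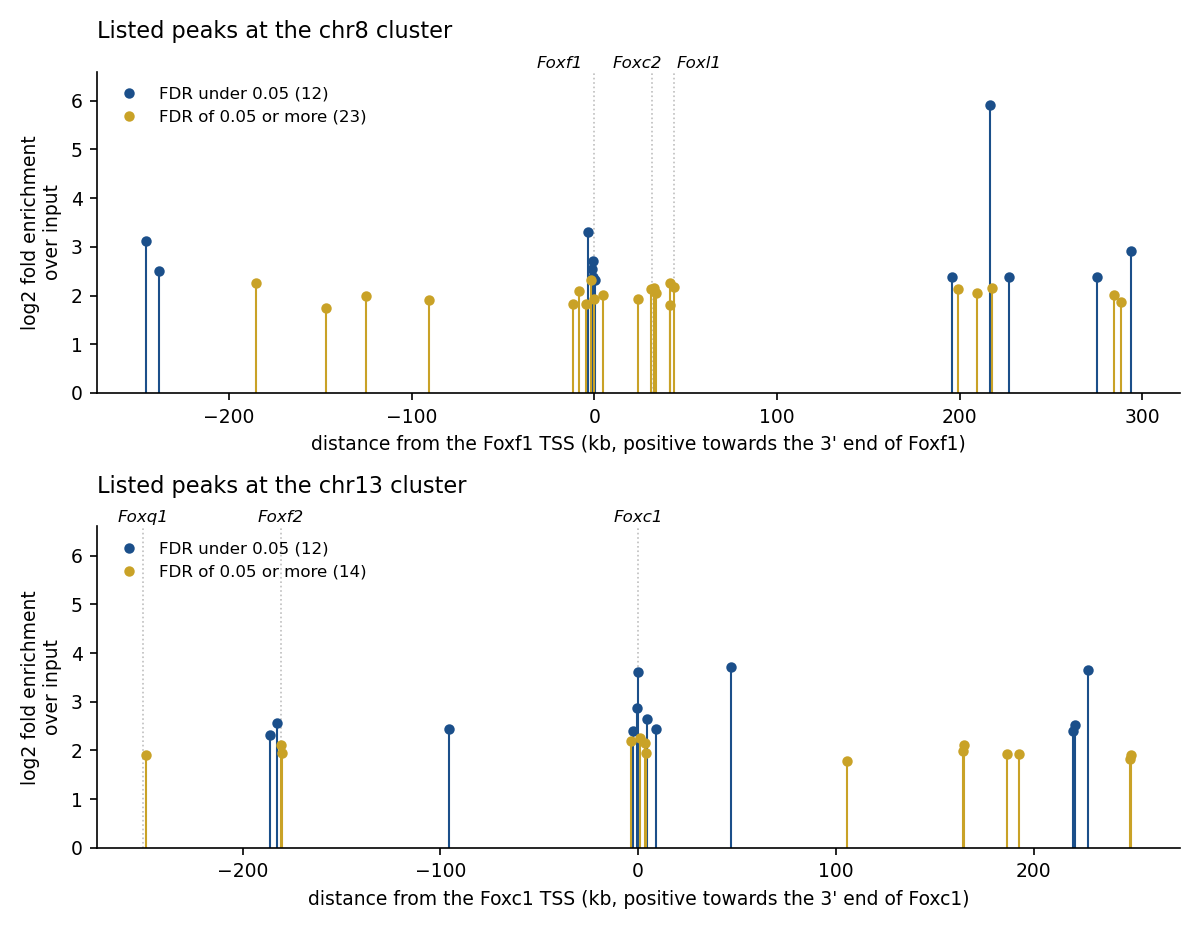
Log2 fold enrichment over input of each listed peak (vertical axis) by distance in kb from the TSS of Foxf1 (upper panel, 35 peaks) or of Foxc1 (lower panel, 26 peaks). Blue points have an FDR under 0.05, yellow points one of 0.05 or more, and dotted lines mark the TSSs. At the chr8 cluster 1 distal peak at log2 5.91 stands over all others, while at the chr13 cluster 3 peaks lie between 3.61 and 3.71.

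Of the 35 listed peaks of the chr8 cluster, 18 lay within 10 kb of a TSS, 2 between 10 and 100 kb away and 15 between 100 and 250 kb away, which is the widest bin. The chr13 cluster had 14, 2 and 10 peaks in the same bins, and Foxd1 had 8, 3 and 11. The strongest peak of the chr8 cluster, ranked 5 of the whole list, was among the distal ones (chromosome 8, 121300500 to 121301999, 1500 bp long). Its log2 fold enrichment was 5.91, a 60.2-fold enrichment over input, and its −log10 Poisson p stood at 100, where the scale stops. The summit lay 173 kb downstream of the TSS of Foxl1, in the span of the lincRNA Gm26815. Of all protein-coding genes, 0.26% had a peak this strong within 250 kb. The C3A site printed above lay 47 bp from this summit, and no other GLI match was found in the called peak. A weaker peak ranked 9672 lay about 1 kb further on (log2 2.16, FDR 0.148). In all, the span of Gm26815 held 6 listed peaks, 3 of them with an FDR under 0.05.

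Distal peaks lay on both sides of the cluster. The peak ranked 1575 (120838900, log2 3.12) was 245 kb upstream of Foxf1, and its nearest protein-coding TSS was that of Irf8, a transcription factor gene of myeloid cells, 100598 bp away. The peak ranked 2380 (log2 2.92) was 249.987 kb downstream of Foxl1, just inside the limit of the rule. The nearest listed peak beyond the limit was 340.177 kb away (log2 2.26, FDR 0.0709). All 35 summits fell in the span of Gm20388, a gene model annotated as protein-coding that runs from 119910841 to 124345722 on chromosome 8. For that reason 30 of the 35 were classed as intronic, and this says little about their position relative to the forkhead genes.

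Around the TSSs the 3 neighbours differed in their listed peaks. Within 10 kb of Foxf1 there were 10 listed peaks, and 5 of them had an FDR under 0.05. As many as 10 were found for 0.137% of protein-coding genes. With summits within 1 kb of each other merged, the 10 became 4, of which 2 held a peak with an FDR under 0.05, and 0.766% of genes had as many. The strongest of these, ranked 1114, had its summit 3679 bp upstream of the TSS with log2 3.31, a 9.88-fold enrichment. It lay in the span of Fendrr, the noncoding RNA transcribed away from Foxf1, and held the exact consensus 128 bp from the summit. The others with an FDR under 0.05 had summits 1329, 819 and 449 bp upstream (log2 2.54, 2.70 and 2.39) and 601 bp downstream in the coding exon (log2 2.32). The listed peak closest to the Foxf1 TSS was 74 bp away and weaker, at log2 1.93 with an FDR of 0.771.

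Foxc2 and Foxl1 had listed peaks at their TSSs, none of which had an FDR under 0.05. Foxc2 had 7 within 10 kb, at log2 1.80 to 2.27, including those 494 bp upstream (log2 2.13, FDR 0.233), 686 bp downstream (FDR 0.244) and 991 bp downstream (log2 2.15, FDR 0.233). Foxl1 had 4 within 10 kb, and the summit of 1 of them was 3 bp from its TSS (log2 2.17, FDR 0.148). The neighbouring windows share peaks here, since a peak 2208 bp upstream of Foxl1 (log2 2.27, FDR 0.0704) also lies within 10 kb of Foxc2. The step at the threshold was small, since the lowest passing value within 10 kb of Foxf1 was log2 2.32 and the highest at the Foxc2 and Foxl1 TSSs was 2.27. The difference between these neighbours was not tested.

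**Figure D2:**
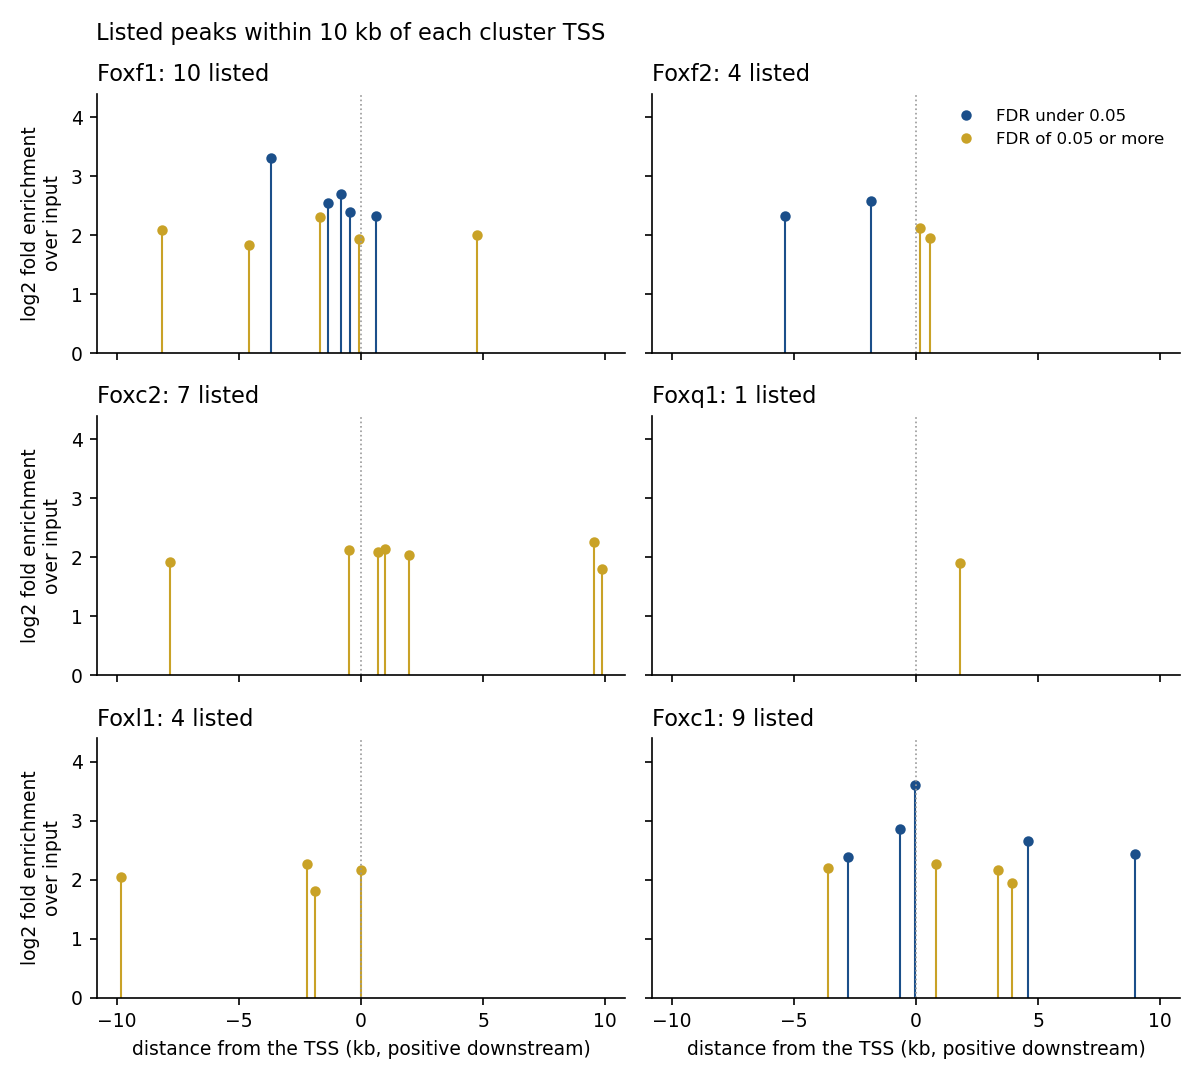
Log2 fold enrichment over input of listed peaks within 10 kb of the TSS of each cluster gene, by distance from the TSS in kb (left column chr8, right column chr13). Blue points have an FDR under 0.05, yellow points one of 0.05 or more, and a peak within reach of neighbouring genes is drawn at each. Foxf1 and Foxc1 have 5 blue points each, Foxf2 has 2, and Foxc2, Foxl1 and Foxq1 have 0.

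The chr13 cluster is wider, with TSSs at 31556134 (Foxq1), 31625816 (Foxf2) and 31806633 (Foxc1) on the plus strand, and 9 of its 26 listed peaks were within 250 kb of all 3 genes. Its density was 3.46 listed peaks per 100 kb. The FDR was under 0.05 for 12 peaks (46.2%, 28.8 to 64.5), the same number as at the chr8 cluster within 250 kb. Within 100 kb the numbers were 9 here and 5 at the chr8 cluster. All 26 were within 250 kb of Foxc1, 16 of Foxf2 and 9 of Foxq1. The nearest protein-coding TSS was that of Foxc1 for 20 peaks and that of Foxf2 for 5, and for 1 it was that of A530084C06Rik, a gene overlapping Foxq1. The share of protein-coding genes with as many listed peaks was 1.07% for Foxc1, 6.6% for Foxf2 and 25% for Foxq1.

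The 3 highest-ranked peaks of this locus were of like strength. The peak ranked 492 (31853400) lay 47.2 kb downstream of Foxc1 at log2 3.71, a 13.1-fold enrichment, and held no GLI match. The peak ranked 548 (32033950) lay 228 kb downstream of Foxc1 at log2 3.66, with its C3A site 233 bp from the summit. Both were in introns of Gmds, which encodes an enzyme of GDP-fucose synthesis and whose span held 11 listed peaks, 4 of them with an FDR under 0.05. The peak ranked 607 (31806200) was at the Foxc1 promoter, with its summit 56 bp from the TSS and a log2 of 3.61 (12.2-fold). In contrast to the chr8 cluster, no peak here exceeded log2 3.71.

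Foxc1 had 9 listed peaks within 10 kb, 5 of them with an FDR under 0.05, and 0.205% of protein-coding genes had as many. Merged in the same way the 9 became 4, each with a peak of FDR under 0.05. Beside the promoter peak there was one 656 bp upstream (rank 2634, log2 2.86), and one 4579 bp downstream in a UTR exon of Foxc1 (log2 2.66). Peaks 8974 bp downstream (log2 2.44) and 2786 bp upstream (log2 2.39) also passed the threshold. Foxf2 had 4 listed peaks within 10 kb, of which those 1849 bp (log2 2.57) and 5379 bp (log2 2.32) upstream had an FDR under 0.05. Both were in the span of the lincRNA 1700018A04Rik. The pair nearest to the Foxf2 TSS, at 181 and 586 bp, was weaker (log2 2.12 and 1.94, FDR 0.233 and 0.727). Foxq1 had 1 listed peak within 10 kb, 1783 bp from its TSS, at log2 1.91 with an FDR of 0.782. The gene with the most listed peaks within 10 kb was thus Foxf1 in the chr8 cluster and Foxc1 in the chr13 cluster, which are not each other's paralog. With summits merged, Foxf1 and Foxc2 had the same number, 4, of which 2 and 0 held a peak with an FDR under 0.05. The peaks within 10 kb of Foxc2 include one 25 bp from the TSS of Mthfsd (rank 14361). They also include those ranked 7955 and 16451, whose nearest TSS was that of Foxl1.

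The promoter of Foxc1, from RefSeq (GRCm38.p6), is printed because the peak ranked 607 overlaps it. It is the 250 bases before the RefSeq start (chr13:31806396-31806645, plus strand), and it held 29 CpG dinucleotides and no GLI match.
Foxc1 promoter: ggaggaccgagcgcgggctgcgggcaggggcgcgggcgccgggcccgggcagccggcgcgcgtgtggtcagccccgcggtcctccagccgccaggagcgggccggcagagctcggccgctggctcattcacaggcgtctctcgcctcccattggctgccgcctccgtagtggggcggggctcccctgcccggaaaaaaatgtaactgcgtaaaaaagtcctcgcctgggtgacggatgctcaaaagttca

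Of 32851 RefSeq promoters of 300 bases, 6.74% held a GLI match. The promoter table held 5 of the 10 genes. That of Foxd1 is printed because it was the only other one to overlap a peak with an FDR under 0.05 (rank 6577, log2 2.37, FDR 0.0374). It is chr13:98353995-98354244, plus strand, with 12 CpG dinucleotides and no GLI match. The peak runs from 98353800 to 98353999, so it reaches only the first few bases printed. Its summit (98353867) and the GLI match near that summit lie outside the printed stretch.
Foxd1 promoter: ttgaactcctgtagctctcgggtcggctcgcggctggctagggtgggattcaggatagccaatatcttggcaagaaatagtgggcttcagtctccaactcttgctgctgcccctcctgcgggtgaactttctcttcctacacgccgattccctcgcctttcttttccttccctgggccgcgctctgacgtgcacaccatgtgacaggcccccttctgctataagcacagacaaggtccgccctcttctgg

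The single genes spread widely. With neighbouring peaks counted apart, Foxd2 (TSS at 114908873, minus strand of chromosome 4) had 26 listed peaks, 15 of them with an FDR under 0.05 (57.7%, 38.9 to 74.5). Of protein-coding genes, 0.907% had as many of the latter. Foxd1 (TSS at 98354242, plus strand of chromosome 13) had 22, with 10 under 0.05 (45.5%, 26.9 to 65.3). Foxp1 had 9, with 3 under 0.05, and Foxp2 had 3, with 2 under 0.05. Foxp1 and Foxp2 have 6 and 5 annotated TSSs, so their windows were wider (992.7 and 795.6 kb), and their densities were 0.907 and 0.377 listed peaks per 100 kb, against 4.4 at Foxd1 and 5.2 at Foxd2. Foxp2 was thus below the 0.629 of the placed chromosomes, and 66.2% of protein-coding genes had at least 3 listed peaks.

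**Figure D3:**
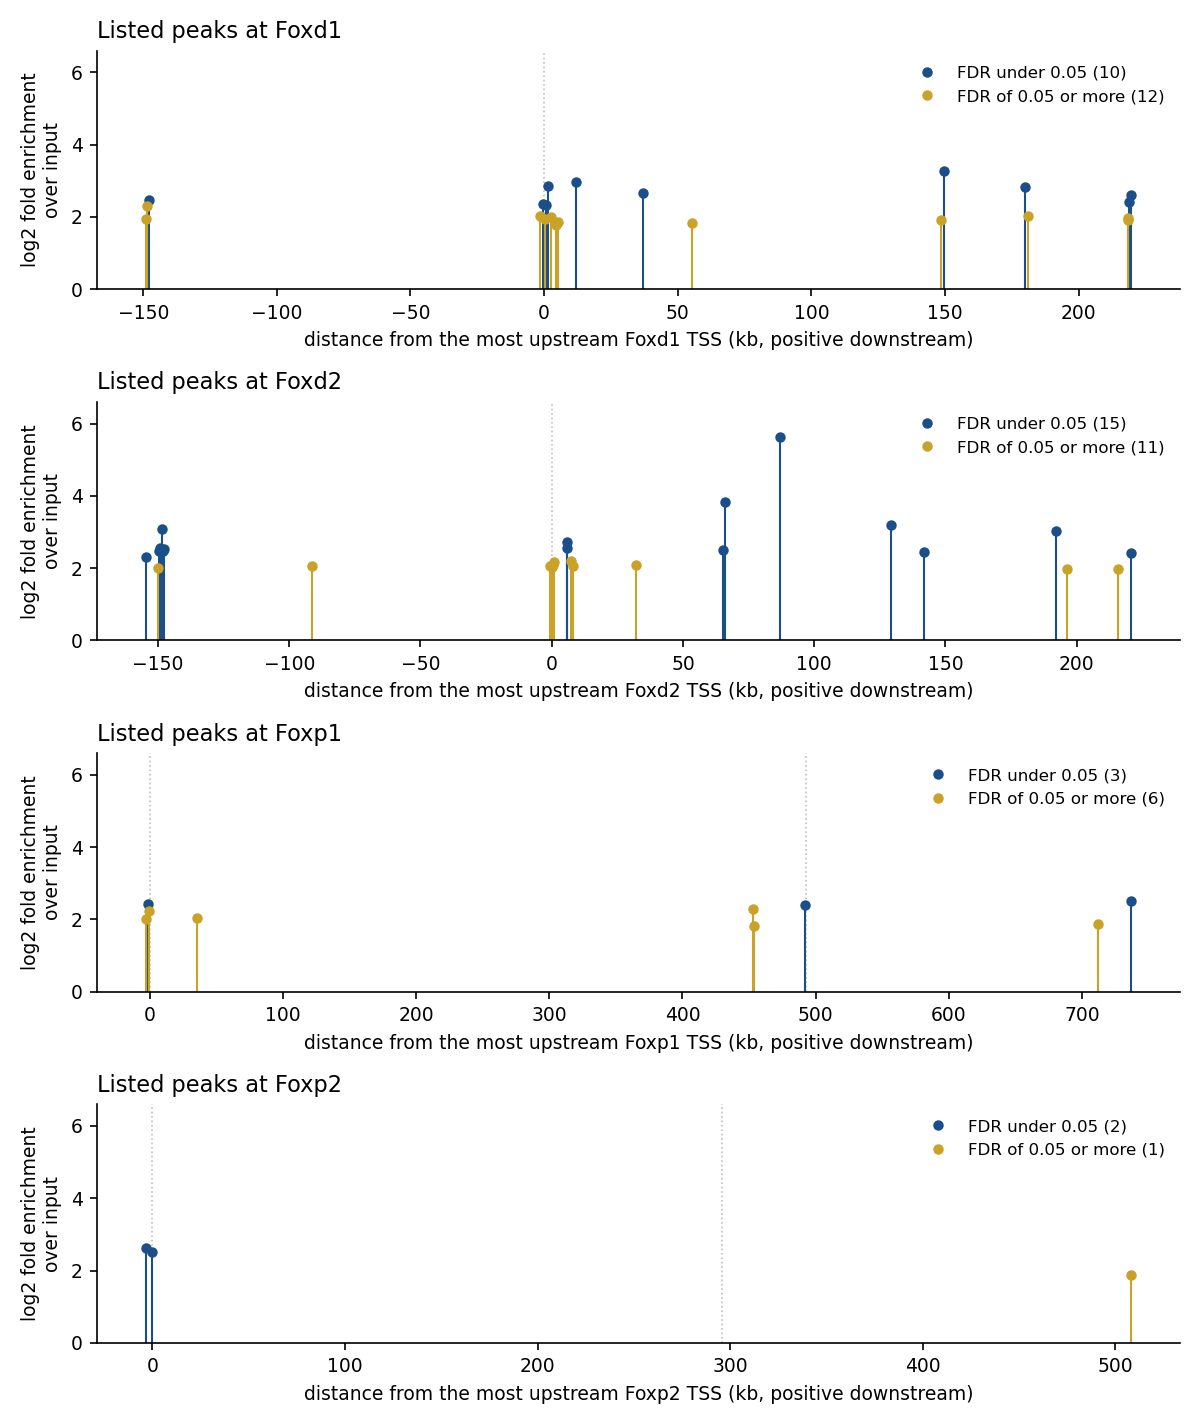
Log2 fold enrichment over input of listed peaks at Foxd1, Foxd2, Foxp1 and Foxp2, by distance in kb from the most upstream TSS of each gene, positive in the direction of transcription. Blue points have an FDR under 0.05, yellow points one of 0.05 or more, and dotted lines mark the first and the last TSS of the gene. At Foxd2 the peaks at log2 5.63 and 3.84 stand 87.0 and 66.1 kb away, while the points at the TSS itself are yellow.

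At Foxd2 the strong peaks were nearer to other genes. The peak ranked 8 of the whole list (chromosome 4, 114821400, log2 5.63, 49.5-fold) had its summit 170 bp from the TSS of Gm12830, a protein-coding gene model, and 87.0 kb from that of Foxd2. It also lay in the span of the antisense transcript 9130410C08Rik. It held the exact consensus 138 bp from the summit, and its called span held 2 further matches with 1 mismatch (C7A and A2T). The next peaks were those ranked 366 (log2 3.84, 66.1 kb from Foxd2, in an intron of Gm12830) and 1351 (log2 3.19, 129 kb). The nearest protein-coding TSS was that of Gm12830 for 9 of the 26 listed peaks, that of Tal1, a regulator of blood cell formation, for 7, and that of Foxd2 for 9. Of the 15 with an FDR under 0.05, 7 were nearest to Gm12830, 6 to Tal1 and 2 to Foxd2. Several of the 15 were close neighbours. Those ranked 1729, 4549, 4930, 5368 and 5567, at the Tal1 promoter, had summits from 115056422 to 115058637, each within 1 kb of the next. The peaks ranked 366 and 5186 also lay within 1 kb of each other, as did those ranked 3363 and 4626. With summits within 1 kb merged, the 60 listed peaks of the single genes became 35.

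At Foxd2 itself the 4 listed peaks within 2 kb of the TSS all had an FDR of 0.05 or more. The closest was 16 bp away (log2 2.04, FDR 0.438), and the strongest of the 4 was 1046 bp downstream in the coding exon (log2 2.17, FDR 0.148). The peaks nearest to Foxd2 that passed were 5656 bp (rank 3363, log2 2.73) and 5856 bp (log2 2.56) downstream, and the first held the exact consensus 58 bp from its summit. Foxe3, a lens gene of the same family, lies next to Foxd2, and its window held the same numbers of 26 listed peaks and 15 under 0.05. The counts cannot be assigned to either gene.

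At Foxd1 no peak dominated. The 3 highest-ranked were ranked 1199 (150 kb downstream, log2 3.27, 1850 bp long), 2238 (11.9 kb downstream, log2 2.96) and 2690 (1380 bp downstream in the coding exon, log2 2.85), and none held a GLI match around its summit, although the called span of the peak ranked 2238 held 1. The nearest protein-coding TSS of the first was that of Gm10320. Within 2 kb of the Foxd1 TSS there were 5 listed peaks, and 3 had an FDR under 0.05, which lay 375 bp upstream (log2 2.37), 780 bp downstream (log2 2.33) and at the position given above. The peak 375 bp upstream held a GLI match with 1 mismatch (C4A) 54 bp from its summit. Unlike at Foxd2, peaks that passed the threshold lay within 2 kb of the TSS, on both sides of it. With summits within 1 kb merged, the 8 listed peaks within 10 kb of Foxd1 became 3. Only 1 of these held a peak with an FDR under 0.05, so the 3 that passed formed 1 stretch. The 8 within 10 kb of Foxd2 also became 3, of which 1 held such a peak. The nearest TSS was that of Foxd1 for 11 of its 22 peaks.

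At Foxp1 and Foxp2 the peaks were few, and none exceeded log2 2.63. The strongest at Foxp1 had log2 2.50 (rank 5120) and lay 244 kb from the last TSS. The others with an FDR under 0.05 were at its promoters, 1610 bp (log2 2.44) and 553 bp (log2 2.39) from a TSS, and 0 of the 9 listed peaks held a GLI match, which allows a share of up to 33.3% (3 counts of 9). At Foxp2 both peaks with an FDR under 0.05 were close to the most upstream TSS, at 3177 bp (rank 4065, log2 2.63) and 357 bp (rank 5147, log2 2.50). The exact consensus lay 180 bp from the summit of the first, outside the called peak. The third listed peak, 212 kb away in an intron of Foxp2, had an FDR of 1. Both genes had few listed peaks for their window, yet each had a peak with an FDR under 0.05 within 2 kb of a TSS, which Foxc2, Foxl1, Foxq1 and Foxd2 did not.

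**Figure D4:**
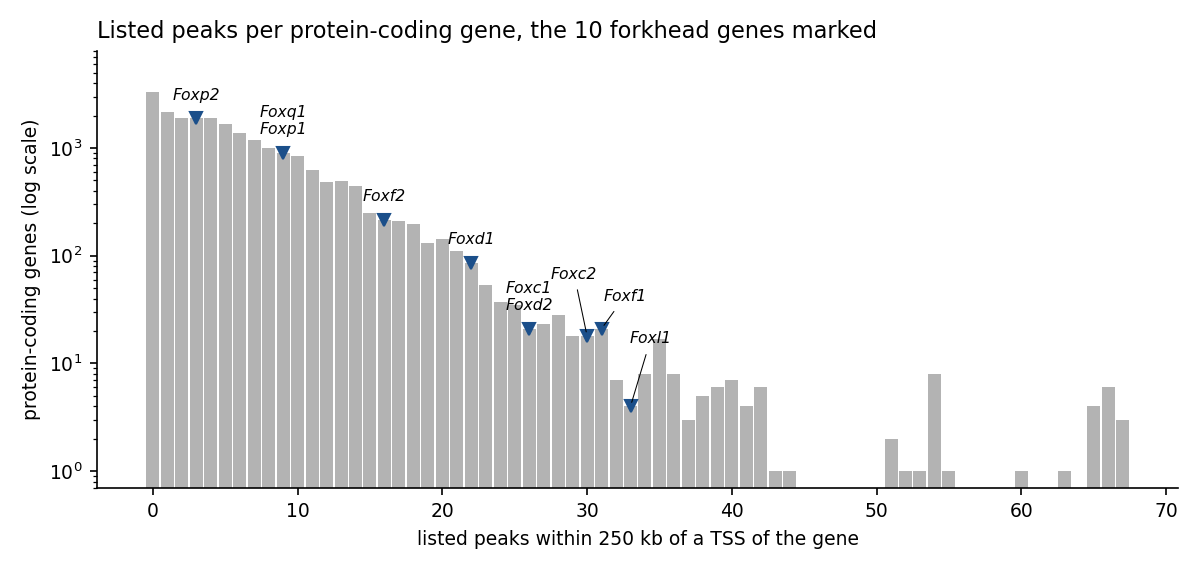
Number of protein-coding genes (vertical axis, log scale) by the number of listed peaks within 250 kb of a TSS. Triangles mark the 10 forkhead genes, from Foxp2 with 3 listed peaks to Foxl1 with 33, and the median gene had 4.

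Among all protein-coding genes the median was 4 listed peaks (interquartile range 1.25 to 9) and 2 with an FDR under 0.05. The 10 forkhead genes had a median of 24 and 9.5. They were chosen with these counts known, and several share peaks, so these medians support nothing. The other 34 forkhead genes of the annotation had a median of 7 listed peaks, with a range of 1 to 26, and of 2.5 under 0.05. Each of the 34 had at least 1 listed peak, and 27 had one with an FDR under 0.05. The most listed peaks among them were at Foxe3 (26, the window of Foxd2), Foxp4 (22) and Foxs1 (19). Foxp4, of the same subfamily as Foxp1 and Foxp2, thus had 13 peaks with an FDR under 0.05 where those had 3 and 2.

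The enrichment of the members was that of the list. Their median log2 fold enrichment was 2.23 (interquartile range 1.99 to 2.50), and the median of all listed peaks was 2.23 (1.99 to 2.60). The medians were 2.15 at the chr8 cluster, 2.23 at the chr13 cluster and 2.31 at the single genes, with 2.43 at Foxd2 the highest among loci with more than 3 peaks. Apart from the peaks ranked 5 and 8, no member exceeded log2 3.84. Member peaks had a median length of 200 bp, beside 250 bp in the list. Many values are tied, since 86.1% of listed peaks shared their log2 fold enrichment with another peak. At the threshold of 0.05, the weakest member that passed had log2 2.32 and the strongest that did not had log2 2.31.

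**Figure D5:**
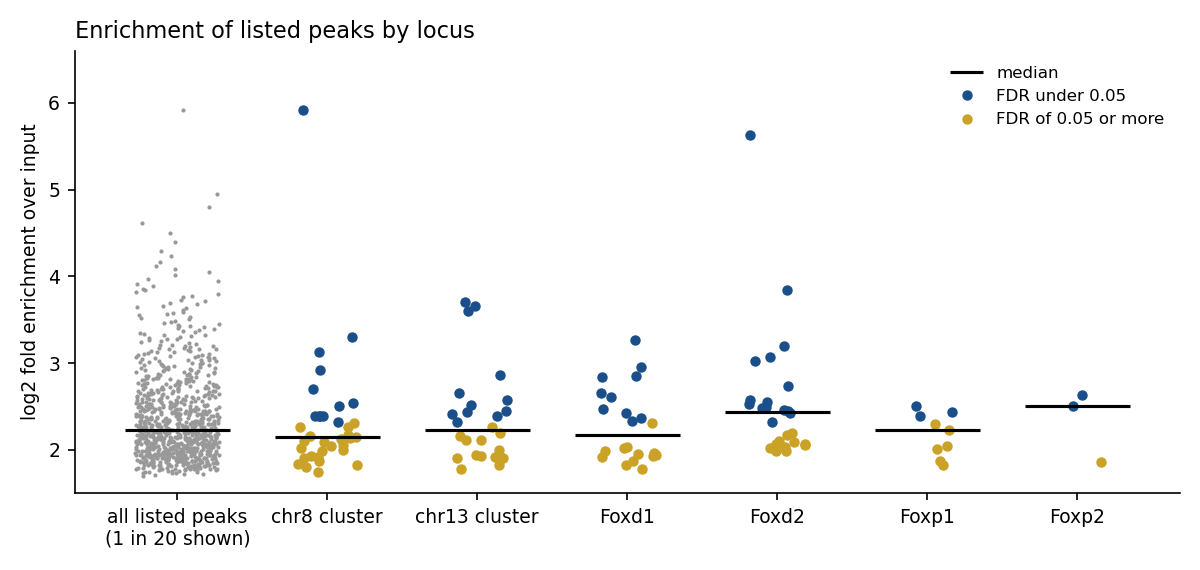
Log2 fold enrichment over input of each listed peak, for every twentieth peak of the whole list (grey) and for all peaks of each locus. Blue points have an FDR under 0.05, yellow points one of 0.05 or more, and black lines are medians, which lie between 2.15 and 2.50 at the loci. Single peaks at 5.91 (chr8 cluster) and 5.63 (Foxd2) stand far above the rest of their locus.

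Promoter peaks were those that overlapped the stretch from 2 kb before to 1 kb after a protein-coding TSS. They were 41 of the 121 members (33.9%, 26.1 to 42.7), beside 48.1% of listed peaks. Within 100 kb in place of 250 kb the share was 46.4%, close to that of the list, and within 500 kb it was 31.2%. The rule chose members by their distance to a TSS, so this share depends on that distance and is a description only. At the chr13 cluster the share was 23.1% (6 of 26 peaks), at the chr8 cluster 34.3% (20.8 to 50.8) and at Foxd2 46.2% (28.8 to 64.5), where 6 of the 12 had an FDR under 0.05 and none of those 6 was nearest to Foxd2. Of the 41 promoter peaks, 29 had their nearest protein-coding TSS at 1 of the 10 genes. Over all 121 members that was the case for 84 peaks, 32 of them with an FDR under 0.05, and for the other 37 another gene was nearer.

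GLI matches, which the rule did not use, were found in 23 of the 121 members (19.0%, 13.01 to 26.91). The share over all listed peaks was 17.9%, so the members were near the background. The windows of 29 members overlapped that of another member, but the 30 matches lay at 30 different positions. By locus the share was 25.7% (14.2 to 42.1) at the chr8 cluster, 11.5% (4.0 to 29.0) at the chr13 cluster and 18.3% (10.56 to 29.92) at the single genes, and the 3 intervals overlap. Of members with an FDR under 0.05, 24.1% held a match (14.6 to 36.9), beside 20.8% of all such peaks.

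The exact consensus was found in 8 members (6.61%, 3.39 to 12.5), which are the 8 printed above. The share over the list was 2.17%, below this interval. Among distal members it was 7.5% (3.48 to 15.4), beside 3.08% of all distal peaks, and among promoter members 4.88% (1.35 to 16.1), beside 1.19%. Of the 8 peaks, 5 had an FDR under 0.05, beside 55.6% of all listed peaks with the exact consensus. Among members with an FDR under 0.05 the share with the exact consensus was 9.26% (4.02 to 19.9), beside 2.84% of all such peaks. There were 3 at the chr8 cluster, 2 each at Foxd1 and Foxd2, 1 at Foxp2 and 0 at the chr13 cluster, where a count of 0 among 26 peaks allows a share of up to 11.5% (3 counts of 26). The chr8 peaks ranked 7911 and 14781 had an FDR of 0.0704 and 0.782, and lay 185 and 90.5 kb upstream of Foxf1. The peak ranked 14781 had a −log10 Poisson p of 15.8, the highest among members that did not pass the threshold. The peak ranked 13881, at the promoter of Arhgef28, held 4 matches in its window, the most of any member.

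The members held 8 forms with 1 mismatch. The C3A form GAACACCCA was found in 5 members (4.13%, 1.78 to 9.31) and in 103 listed peaks (0.601%). The C7A form was found in 5 members (4.13%, 1.78 to 9.31) and 275 listed peaks (1.6%). For A2C the shares were 2.48% of members and 2.13% of the list, for A2G 1.65% and 1.87%, and for A9T 1.65% and 0.747%. The other 3 forms were found in 1 member each. The 5 peaks with C3A were the 2 printed above, those ranked 16092 and 16978 at the chr8 cluster, and that ranked 13881 at Foxd1. The last 3 had an FDR of 0.727 or more. The sites in the peaks ranked 5 and 548 share a longer run, GAACACCCAAGTTGA, of 15 bases. On both strands of the placed chromosomes these letters occurred 5 times, and 2 listed peaks held them in their window, namely these 2. The run was singled out after the sequences had been read. It is a description of letters, with no measure of binding to it.

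The core of the motif that forkhead proteins bind, TGTTTAC on either strand, was found in 13 members (10.7%, 6.39 to 17.5) and in 5.93% of listed peaks, which is below the interval. Of distal members 12.5% held it (6.93 to 21.5), beside 7.87% of all distal peaks, and of promoter members 7.32% (2.52 to 19.4), beside 3.83%. In both classes the interval includes the value for all peaks of that class. By locus there were 4 at the chr13 cluster (15.4%), 2 at the chr8 cluster (5.71%) and 7 at the single genes (11.7%). At an FDR under 0.05, 4 of 54 members held it (7.41%, 2.92 to 17.6), beside 5.58% of all such peaks. At an FDR of 0.05 or more, 9 of 67 members held it (13.4%, 7.23 to 23.6), beside 6.19% of all such peaks, which is below the interval. The core and the GLI consensus share no stretch longer than a pair of bases on either strand.

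The median GC content within 250 bp of the summits was 55.7% for members and 55.9% for all listed peaks. It was higher at the chr8 cluster (58.1%) than at the chr13 cluster (46.7%), which had the lower share of GLI matches and the higher share of forkhead cores. The part of GC content in these differences was not tested.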

How the data were processed

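Per the submitters' processing notes, the reads were aligned with Bowtie2 2.2.5 to mm10, and the study called peaks with CisGenome. The list was deposited with ChIP replicate 1. It does not itself name its libraries, but the study describes peaks with an FDR under 0.05 as called from both replicates, and enrichment is over the input. For each peak the deposited list gives an FDR (a q-value), a maximum log2 fold enrichment relative to input, a T score by which the authors ranked the peaks, and a −log10 Poisson p-value, which stops at 100. The deposited positions and summits are printed as listed.

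Genes came from the GENCODE M21 basic annotation and sequence from GRCm38.p6, and 0 peak ends lay beyond a chromosome end. The 5 peaks on unplaced sequence were left out wherever a position was needed. Distance was taken to any annotated TSS of a gene. Promoter peaks shared 1 bp or more with the window from 2 kb before to 1 kb after a protein-coding TSS. Motifs were searched within 250 bp on either side of each summit. Density is peaks per 100 kb of the union of windows. Shares carry 95% Wilson intervals. As no test was possible, lists are described by counts and medians beside the same over all listed peaks or genes. Named genes were the 10 members, the genes nearest to or holding the 3 highest-ranked peaks of each locus, and the 3 other forkhead genes with the most listed peaks. Tal1, Stil, Arhgef28, Mthfsd, A530084C06Rik and 1700018A04Rik were named after their values were seen. The members and lists were chosen with earlier results of these data known. Scripts (Python 3.11.15, pandas 2.3.3, SciPy 1.17.1) were tested on simulated data with planted motifs. The study's methods give only a minimum depth per library, so exact depths were not used. Alternatives changed the distance, the FDR threshold, the TSS used, the promoter window, the motif and the treatment of neighbouring or strongest peaks.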

Additional observations from a re-analysis of the deposited data

How the results depend on the processing

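Of 46 alternative values over 11 results, 29 stayed within 1.5 times the count or within the interval of the share or median, and 17 moved. Within 100 kb in place of 250 kb, listed peaks fell to 20 at the chr8 cluster, 16 at the chr13 cluster and 33 at the single genes. Peaks with an FDR under 0.05 fell to 5 at the chr8 cluster and 14 at the single genes. The promoter share rose to 46.4%, beside 48.1% of the list. An FDR under 0.01 left 6, 6 and 16 peaks. Counting only peaks whose nearest protein-coding TSS was that of a member left 32 listed peaks and 12 with an FDR under 0.05 at the single genes. The exact consensus gave a share of 6.61%, and members with an FDR under 0.05 a median log2 of 2.53. Merging summits within 1 kb, an alternative added after the data were seen, left 17 listed peaks at the chr13 cluster and 35 at the single genes, and 4 each within 10 kb of Foxf1 and Foxc1. Without the strongest peak of each locus, also added, the median was 2.17. No paired analysis was possible because each peak has 1 value and none per replicate, and for the same reason no replicate could be left out. The exact depth of each library was not used here, and its part in which peaks passed the threshold was not tested.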

Other observations

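The 5 listed peaks of highest −log10 Poisson p among members with an FDR of 0.05 or more were at the chr8 cluster (ranks 14781, 9672 and 14294), at Foxd2 (rank 11713) and at Foxd1 (rank 14406). Their values ran from 15.8 at rank 14781 to 10.97 at rank 14406. The 54 members with an FDR under 0.05 had a median of 12.6. The peak ranked 14294 has its summit 74 bp from the TSS of Foxf1 (121084300 to 121084399, −log10 Poisson p 12.9), and that ranked 11713 lies 112 bp from the TSS of Stil.

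The distal reach of the windows ended in sparse stretches at some loci. The nearest listed peaks beyond the limit were 274 kb away at the chr13 cluster (log2 2.09, FDR 0.251), 414 kb at Foxd1 (log2 1.99, FDR 0.461), 367 kb at Foxd2 (log2 3.16, FDR 0), 325 kb at Foxp1 (log2 1.95, FDR 0.727) and 619 kb at Foxp2 (log2 1.83, FDR 1). The farthest inside were at 249.1, 219, 221, 244 and 212 kb, in the same order.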
